A study of Mus musculus with 6 samples.

Results

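The glycosaminoglycan linkage enzymes build the short sugar bridge that joins heparan sulfate and chondroitin sulfate chains to the core proteins of proteoglycans. The set comprised Xylt1, Xylt2, B4galt7, B3galt6 and B3gat3, the enzymes of that pathway, and was chosen with earlier results of these data known. All 5 were measured, each by 1 probe set, among 909 named genes and 1246 probe sets. The groups were male mice with insulin-deficient diabetes (n = 3) and healthy wildtype males (n = 3), and total liver RNA of each sample was hybridised to its own Affymetrix array. How the diabetes arose, the strain and the age are not stated by the labels. The study asked whether enzymes of glycosaminoglycan synthesis are expressed less in diabetic liver, in connection with the turnover of plasma lipids.

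The linkage region is the same in heparan sulfate and chondroitin sulfate: xylose on a serine of the core protein, then a pair of galactoses, then glucuronic acid. Xylt1 and Xylt2 attach the xylose, B4galt7 adds the first galactose, B3galt6 the second, and B3gat3 the glucuronic acid, all in the secretory pathway and all from UDP-sugars. After the glucuronic acid, Extl3 commits the chain to heparan sulfate, and Csgalnact1 and Csgalnact2 to chondroitin sulfate. In mouse liver, heparan sulfate on syndecan-1 of hepatocytes binds triglyceride-rich lipoproteins for uptake, and Xylt2 is the xylosyltransferase on which liver proteoglycans mainly depend. In humans, inherited defects in these genes cause skeletal and connective tissue disorders.

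Promoter sequences of 4 of the 5 genes are shown because the enzymes act on one chain and their levels were compared across the same arrays. They come from RefSeq on GRCm38.p6 and cover the 250 bases before the transcript start, read 5′ to 3′ on the gene's strand; Xylt1 was not matched. The windows are chr11:94677494-94677743 (minus strand) for Xylt2, chr13:55599646-55599895 (plus) for B4galt7, chr4:155992679-155992928 (minus) for B3galt6 and chr19:8920143-8920392 (plus) for B3gat3. Capitals mark GC boxes (GGGCGG) in Xylt2, exact copies of a repeated word in B3galt6 and CCAAT boxes (CCAAT) in B3gat3, on either strand, and no letter is in capitals for B4galt7.
Xylt2: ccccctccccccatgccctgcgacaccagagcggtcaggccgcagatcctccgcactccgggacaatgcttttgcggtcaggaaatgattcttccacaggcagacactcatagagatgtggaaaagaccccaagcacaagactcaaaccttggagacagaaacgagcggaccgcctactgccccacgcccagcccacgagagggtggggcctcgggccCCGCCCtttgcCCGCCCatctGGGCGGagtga
B4galt7: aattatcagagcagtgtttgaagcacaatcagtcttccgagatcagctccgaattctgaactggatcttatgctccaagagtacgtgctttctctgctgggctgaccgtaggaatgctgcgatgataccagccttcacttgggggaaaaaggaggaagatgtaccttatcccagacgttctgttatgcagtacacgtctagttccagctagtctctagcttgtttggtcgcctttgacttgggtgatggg
B3galt6: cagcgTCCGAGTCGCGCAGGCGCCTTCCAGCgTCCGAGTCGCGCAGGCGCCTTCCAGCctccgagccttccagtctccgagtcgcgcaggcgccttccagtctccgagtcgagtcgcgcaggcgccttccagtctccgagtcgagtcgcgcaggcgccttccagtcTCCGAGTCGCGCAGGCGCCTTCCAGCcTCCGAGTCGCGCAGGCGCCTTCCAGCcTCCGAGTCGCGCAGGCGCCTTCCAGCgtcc
B3gat3: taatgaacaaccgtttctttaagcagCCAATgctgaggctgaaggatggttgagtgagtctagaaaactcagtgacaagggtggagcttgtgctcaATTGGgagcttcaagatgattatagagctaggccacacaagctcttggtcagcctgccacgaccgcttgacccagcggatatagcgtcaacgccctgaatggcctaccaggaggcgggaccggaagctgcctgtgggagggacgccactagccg

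Of the motifs searched, Xylt2 held 3 GC boxes and B3gat3 held 2 CCAAT boxes, while 32.7% and 33.8% of all 32851 RefSeq promoter windows of this length held at least 1 GC box and at least 1 CCAAT box. The E-box CACGTG (6.02% of windows), the FOXO site GTAAACA (3.17%) and the TATA box TATAAA (12.4%), searched on both strands, had 0 matches in these 4 windows, and B4galt7 and B3galt6 had 0 matches of any of the motifs. Each window held matches of at most 1 of the motifs, so none overlapped. The B3galt6 window was a tandem repeat: the 26-base word TCCGAGTCGCGCAGGCGCCTTCCAGC occurred 5 times, and 16 of the 32851 windows (0.0487%) held any word of that length 5 times without overlap. Its GC content was 71.6%, against 63.2% for Xylt2, 54.4% for B3gat3 and 48.0% for B4galt7, and the median of all windows was 52.4%.

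The deposited values are log2 expression values made by RMA, a method that subtracts background, puts the arrays on a common scale and combines a probe set's probes into 1 value. The medians of the arrays ran from 4.93 to 5.06. Without a detection call, a dim probe set could not be told from background, and precision is limited by there being 3 arrays per group. The liver label was checked against hepatocyte markers: the 8 of 11 that were measured all lay above the median probe set. Alb, Ttr and Apoa1 were not analysed here. Between the groups 5 of the 8 had higher and 3 lower means in diabetic liver. The smallest difference was that of the asialoglycoprotein receptor subunit Asgr1, at 12.32 in diabetic and 12.32 in wildtype liver. Igfals differed by -0.61, and Mbl2 by 1.03 (limma adjusted p = 0.0412, and 0.142 with the replicate number as a block). Mbl2 was the 1 marker of the 8 that was called, against 0.321% of all probe sets. Wildtype 2 was the highest of the 6 arrays for 25.3% of probe sets, and diabetic 3 for 20.3%. Wildtype 3 was the lowest for 22.2%, and diabetic 1 for 19.8%. Igfbp1, an insulin-repressed IGF-binding protein, had 10.65, 8.90 and 11.52 on diabetic arrays 1, 2 and 3, against 6.26, 6.50 and 10.09 on wildtype arrays 1, 2 and 3 (limma adjusted p = 0.928). The groups overlapped, with diabetic 2 below wildtype 3. Arrays were labelled as replicates within a group, and if some did not come from separate animals, the p-values measure only the spread between these samples.

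No linkage enzyme passed the test for a difference between diabetic and wildtype liver. All 5 had lower means in diabetic liver, by 0.07 to 0.16 on the log2 scale, and 0 of the 5 were called by limma at a Benjamini-Hochberg adjusted p under 0.05. Over all probe sets 0.321% were called, 4 of 1246 and all higher in diabetic liver, and with the replicate number as a block the share was 0%. At an unadjusted p under 0.05 limma gave 0 of the 5 enzymes, against 2.97% of all probe sets, and with the block also 0 of the 5, against 4.33%. A lower mean in diabetic liver was found for 49.4% of all probe sets. In bulk liver RNA, fewer cells of a type and less RNA per cell cannot be told apart.

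**Figure D1:**
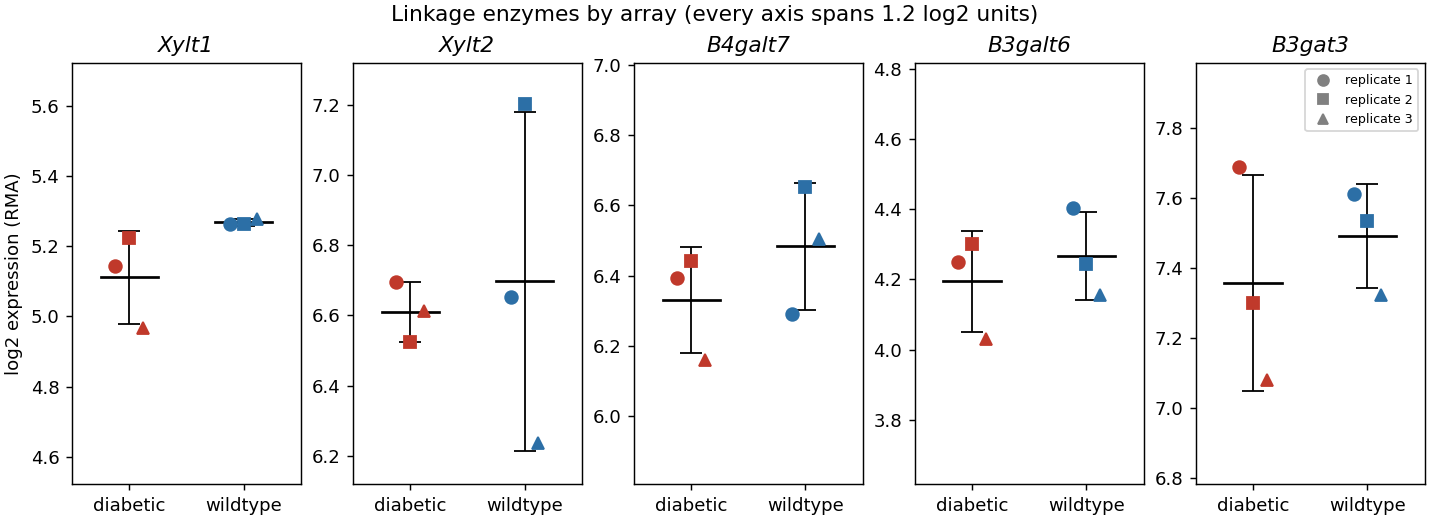
Log2 expression of each linkage enzyme on every array, diabetic left and wildtype right, with marker shape giving the replicate number. Horizontal lines are group means and error bars are SD (n = 3). Groups overlap for 4 of the 5 enzymes; for Xylt1 the 3 diabetic arrays lie below the 3 wildtype arrays.

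Xylt1, the first of the xylosyltransferases, had 5.14, 5.22 and 4.97 on diabetic arrays 1, 2 and 3, against 5.26, 5.26 and 5.28 on wildtype arrays 1, 2 and 3 (log2). All diabetic arrays lay below all wildtype arrays, and it was the 1 enzyme of the 5 without overlap; of all probe sets, 3.29% did not overlap with diabetic lower, and 7.87% in either direction. The means were 5.11 ± 0.13 on diabetic and 5.27 ± 0.01 on wildtype arrays (SD, n = 3), and the difference was -0.16 (95% confidence interval -0.37 to 0.06, limma adjusted p = 0.928). On the linear scale the difference was -10.3%, with an interval of -22.8% to 4.27%. An exact two-sided permutation test gave p = 0.1, the smallest that 3 arrays against 3 allow. The wildtype arrays spanned far less than the diabetic ones, so the difference rested on how low the diabetic arrays were: without diabetic 3 it was -0.08. The mean level lay 0.19 above that of the median probe set, so a signal close to background cannot be told from expression here.

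Xylt2, the other xylosyltransferase, had 6.69, 6.52 and 6.61 on the diabetic arrays, against 6.65, 7.20 and 6.24 on the wildtype arrays. The 3 diabetic values lay inside the wildtype range, whose upper end was wildtype 2 and whose lower end was wildtype 3. The means were 6.61 ± 0.09 on diabetic and 6.70 ± 0.48 on wildtype arrays (SD, n = 3), and the difference was -0.09 with an interval of -0.65 to 0.47 (limma adjusted p = 0.99; exact permutation p = 0.8). Wildtype 2 set the sign: without it the difference was 0.17, and without wildtype 3 it was -0.32. The name of its probe set carries the suffix that marks probes matching more than 1 transcript, and RefSeq lists 6 Xylt2 transcripts.

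B4galt7, which adds the first galactose, had 6.39, 6.44 and 6.16 on the diabetic arrays, against 6.29, 6.65 and 6.51 on the wildtype arrays. Wildtype 1 lay between diabetic 3 and the other diabetic arrays, so the groups overlapped. The means were 6.33 ± 0.15 on diabetic and 6.48 ± 0.18 on wildtype arrays (SD, n = 3), and the difference was -0.15 with an interval of -0.46 to 0.15 (limma adjusted p = 0.928; exact permutation p = 0.4). The difference was -0.25 without wildtype 1 and -0.07 without either diabetic 3 or wildtype 2.

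B3galt6, which adds the second galactose and whose promoter window is the tandem repeat shown above, had 4.25, 4.30 and 4.03 on the diabetic arrays, against 4.40, 4.24 and 4.16 on the wildtype arrays. The groups interleaved. It was the dimmest of the 5 probe sets and the 1 below the median probe set, by 0.77, at percentile 33.6 of mean level. The means were 4.19 ± 0.14 on diabetic and 4.27 ± 0.13 on wildtype arrays (SD, n = 3), and the difference was -0.07 with an interval of -0.34 to 0.19 (limma adjusted p = 0.975; exact permutation p = 0.6). Without diabetic 3 the difference was 0.0085, and without wildtype 1 it was -0.0053. At this level the values may hold little signal over background, so a narrow interval does not show that the transcript level was alike.

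B3gat3, the glucuronosyltransferase that completes the bridge, had 7.69, 7.30 and 7.08 on the diabetic arrays, against 7.61, 7.54 and 7.32 on the wildtype arrays. Diabetic 1 was the highest of all 6 arrays, and diabetic 2 and 3 the lowest. The means were 7.36 ± 0.31 on diabetic and 7.49 ± 0.15 on wildtype arrays (SD, n = 3), and the difference was -0.13 with an interval of -0.54 to 0.27 (limma adjusted p = 0.975; exact permutation p = 0.6). Without diabetic 1 the difference was -0.30, and without diabetic 3 it was 0.0046.

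The intervals of 3 of the 5 enzymes, Xylt1, B4galt7 and B3galt6, excluded a log2 fall of 0.5, as did those of 82.1% of all probe sets. All 5 excluded a fall of 1, which is a loss of 50% on the linear scale. How many of all probe sets did so was not counted. These are intervals of probe set values. Where a signal may be background, as for B3galt6 and Xylt1, they set no bound on a loss of the transcript. The lower bounds were -0.65 for Xylt2 and -0.54 for B3gat3. With the replicate block 4 of the 5 excluded a fall of 0.5, against 83.3% of all probe sets: the interval of B3gat3 was then -0.41 to 0.14, and that of Xylt2 was -0.69 to 0.52. A fall of 0.5 in Xylt2 was within the interval of both fits.

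**Figure D2:**
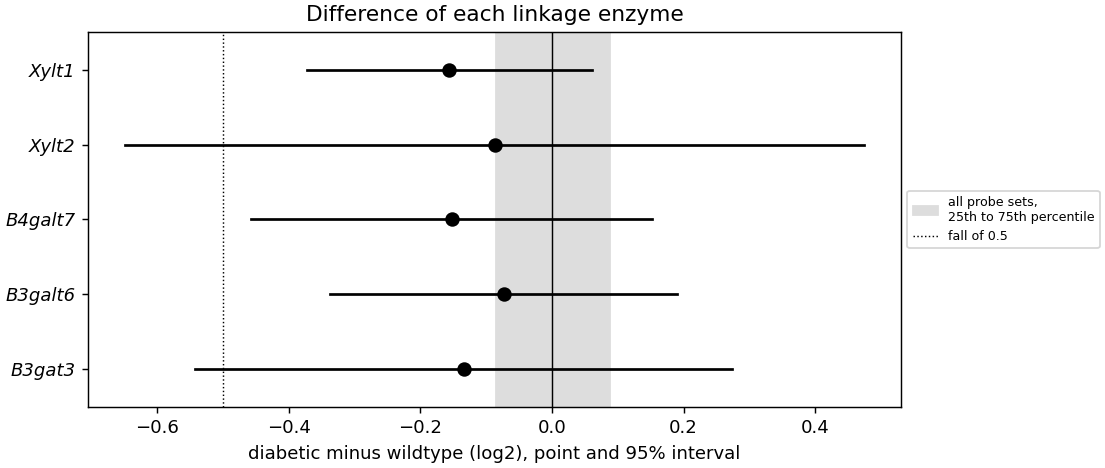
Difference of each linkage enzyme, diabetic minus wildtype on the log2 scale, as a point with its 95% confidence interval. The grey band spans the 25th to 75th percentile of all probe sets (-0.08 to 0.09), and the dotted line is a fall of 0.5. All 5 points lie below 0 and all 5 intervals include 0.

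The probe sets ran in brightness from B3gat3 through Xylt2, B4galt7 and Xylt1 to B3galt6, at percentiles 79.3, 73.2, 70.5, 53.5 and 33.6 of mean level over the arrays. This order is one of probe sets, whose brightness depends on their probes as well as on the transcript, and does not rank the amounts of the transcripts. It was the same by group means in diabetic and in wildtype liver. Neighbours in the order overlapped across the 6 arrays for B3gat3 with Xylt2 and for Xylt2 with B4galt7. B4galt7, Xylt1 and B3galt6 did not overlap with each other on any array.

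As a set, the mean log2 level of the 5 enzymes was 6.03, 5.96 and 5.77 on diabetic arrays 1, 2 and 3, against 6.04, 6.18 and 5.90 on wildtype arrays 1, 2 and 3. The groups overlapped, at 5.92 ± 0.14 over diabetic and 6.04 ± 0.14 over wildtype arrays (SD, n = 3). The mean difference was -0.12 and the median -0.13, beside a mean of 0.01 and a median of 0.00 over all probe sets. Diabetic 3 was the lowest of the 6 arrays for 4 of the 5 enzymes, all but Xylt2, while it was the lowest for 162 of all 1246 probe sets. Its own array median lay inside the range of the others. With diabetic 3 left out, 3 of the 5 enzymes had lower means and the median difference was -0.07. Without wildtype 2, 4 of the 5 were lower, with a median of -0.09. Leaving out any other array kept all 5 lower.

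**Figure D3:**
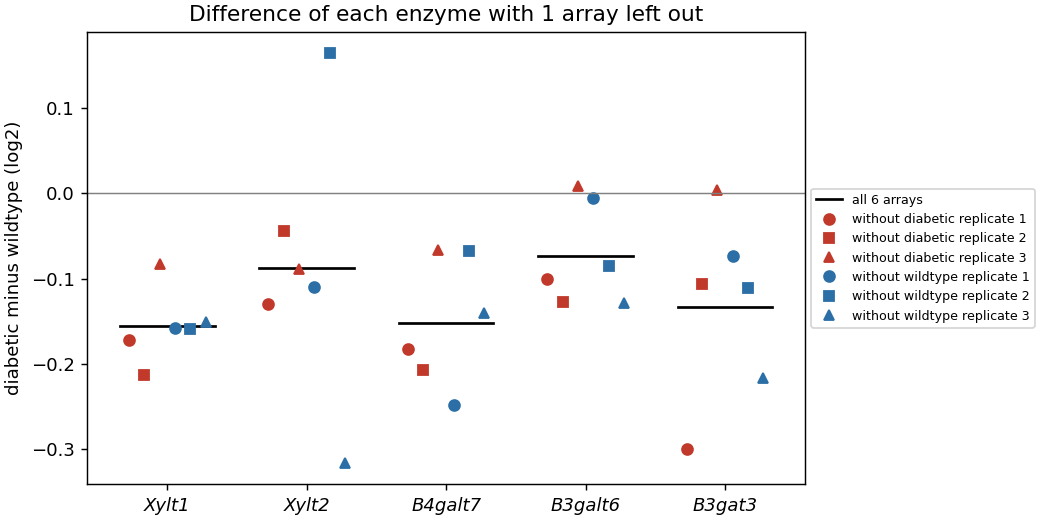
Difference of each linkage enzyme (diabetic minus wildtype, log2) with all 6 arrays (black line) and with 1 array left out (red markers for diabetic, blue for wildtype). Without wildtype 2 Xylt2 moves to 0.17, and without diabetic 3 B3galt6 and B3gat3 lie just above 0.

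Deviations from the group means correlated positively between arrays of the same replicate number, so the differences were also taken within numbers. Arrays of different numbers were not compared in this way, so a link to the number was not tested. Of the 15 within-number differences 10 were negative, with 2 of 5 for the arrays numbered 1, 4 of 5 for those numbered 2 and 4 of 5 for those numbered 3. Xylt1 differed by -0.12, -0.04 and -0.31 within numbers 1, 2 and 3, and was the 1 enzyme with a negative difference within each number. B4galt7 differed by 0.10, -0.21 and -0.35, and B3gat3 by 0.08, -0.23 and -0.24. B3galt6 differed by -0.15, 0.06 and -0.12. Xylt2 differed by 0.04, -0.68 and 0.37, the widest spread of the 5. In limma with the replicate block, the adjusted p was 0.822 for Xylt1, 0.973 for Xylt2, 0.866 for B4galt7 and B3gat3 and 0.893 for B3galt6.

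Over the 6 arrays, the 10 pairs of enzymes had Pearson correlations between 0.03 and 0.73, and 0 of the 10 passed an exact permutation test, adjusted or not. The closest pairs were Xylt1 with B4galt7 (r = 0.73, Spearman's rho = 0.54) and B3galt6 with B3gat3 (r = 0.73, rho = 0.54), each with an exact permutation p of 0.106 for r and 0.297 for rho, which were 0.528 and 0.991 after Benjamini-Hochberg adjustment over the 10 pairs. Without the 2 arrays farthest from the median of the first gene, r was 0.15 for Xylt1 with B4galt7 and 0.12 for B3galt6 with B3gat3 over the 4 arrays left. Diabetic 3 was among the arrays left out for both pairs, and the 4 arrays left span a narrower range of the first gene. The cause of the lower r was not tested. For Xylt2 with B3gat3, r was 0.40 with all arrays and 0.65 over the 4 left. Computed on deviations from the group means, r was 0.63 for Xylt1 with B4galt7 and 0.70 for B3galt6 with B3gat3. For Xylt2 with B3gat3 it was 0.37. The xylosyltransferases Xylt1 and Xylt2 had r = 0.03 and rho = -0.26 (exact permutation p = 0.892 for r and 0.658 for rho; adjusted 0.892 and 1).

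The genes most like each enzyme over the 6 arrays were named by Pearson's r among 904 other genes, a description without a test, since so many genes over so few arrays give high values. For B3gat3 they were Gmppa, the regulatory relative of the GDP-mannose pyrophosphorylase (r = 0.98, rho = 1), and the protein O-fucosyltransferase Pofut2 (r = 0.95, rho = 0.94). Gmppa had 8.23, 7.62 and 7.42 on the diabetic arrays, against 8.16, 7.90 and 7.70 on the wildtype arrays, with diabetic 1 highest as for B3gat3. For Xylt2 they were the galectin Lgals8 (r = 0.99, rho = 0.83) and the heparan sulfate N-deacetylase/N-sulfotransferase Ndst1 (r = 0.98, rho = 0.83). Ndst1 had 9.24, 9.10 and 9.26 on the diabetic arrays, against 9.14, 9.74 and 8.68 on the wildtype arrays, so wildtype 2 was its highest and wildtype 3 its lowest array, as for Xylt2.

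B4galt7 was closest to the chemokine Cx3cl1 and to Mgat4d, of the N-acetylglucosaminyltransferase IV family (r = 0.97 and rho = 0.94 for each). Xylt1 was closest to the lectin Cd209c (r = 0.97, rho = 0.77) and the growth factor Bmp8a (r = 0.93, rho = 0.94), and B3galt6 to the growth factor Clec11a (r = 0.92, rho = 0.94) and the matrix protein Fbln5 (r = 0.91, rho = 0.77). Cd209c, Mgat4d and Fbln5 were dim, at no more than 4.17 on any array.

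The genes that make and carry UDP-sugars, which the linkage enzymes use as donors, had 0 called members. Of 6 measured supply genes, 4 had higher and 2 lower means, with a median difference of 0.24. Ugp2, which makes UDP-glucose, was 9.53 ± 0.21 on diabetic and 8.76 ± 0.26 on wildtype arrays (SD, n = 3), and the difference was 0.77 (limma adjusted p = 0.619), with all diabetic arrays above all wildtype arrays. A lack of overlap in either direction was found for 7.87% of all probe sets. Ugdh, which makes UDP-glucuronic acid, the donor for B3gat3, was 10.90 ± 0.25 against 10.37 ± 0.52 in diabetic and wildtype liver, a difference of 0.53 (adjusted p = 0.928). Uxs1, which makes UDP-xylose, the donor for Xylt1 and Xylt2, had 6.67, 6.32 and 6.28 on the diabetic arrays, against 6.56, 6.21 and 6.53 on the wildtype arrays. Its difference was -0.01 (adjusted p = 0.99).

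The galactokinases Galk1 and Galk2 differed by 0.37 and 0.10. Of 5 measured transporters, 3 had higher and 2 lower means, with a median of 0.07. Slc35d2 and Slc35d1, which carry UDP-sugars into the Golgi and the endoplasmic reticulum, differed by 0.55 and -0.37, with wildtype SDs of 0.91 and 0.72, and Slc35a2, the UDP-galactose transporter, by 0.08 (0.0022 at its dimmer probe set). Slc35b4, which carries UDP-xylose, differed by -0.08. Fam20b and Pxylp1, which add and remove a phosphate on the linkage xylose, were not analysed here.

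Genes acting after the bridge also had 0 called members. Of the 5 that start and extend heparan sulfate, 4 had lower means and 1 higher, with a median of -0.04. Extl3, which follows B3gat3 on the heparan sulfate branch, had 7.41, 7.14 and 7.62 on the diabetic arrays, against 7.30, 7.80 and 7.17 on the wildtype arrays, a difference of -0.04 (limma adjusted p = 0.99). The largest difference was -0.28 for Extl1, and the polymerase subunits Ext1 and Ext2 differed by 0.10 and -0.16. Of 5 measured genes that start and extend chondroitin, 3 had lower and 2 higher means, with a median of -0.02 and -0.26 for Chsy1, a chondroitin synthase. Csgalnact2, which starts chondroitin, differed by -0.02.

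Among 22 measured core proteins that could carry the bridge, 14 had lower and 8 higher means, with a median of -0.02 and 0 called. Syndecan-1, Sdc1, was 8.90 ± 0.11 on diabetic and 8.46 ± 0.40 on wildtype arrays (SD, n = 3), and the difference was 0.44 (limma adjusted p = 0.928), and the glypicans Gpc4 and Gpc1 differed by -0.34 and -0.25. Decorin, Dcn, differed by -0.21. Syndecan-4, Sdc4, was the 1 core protein of the 22 without overlap, at 11.08, 11.17 and 11.08 on the diabetic arrays, against 11.21, 11.23 and 11.26 on the wildtype arrays, a difference of -0.12 (adjusted p = 0.928). Of all probe sets, 3.29% did not overlap with diabetic lower, and 7.87% in either direction. Among 12 measured relatives of the galactosyl- and glucuronosyltransferases that act on other glycans, 8 had higher and 4 lower means, with a median of 0.05. B4galt5, a lactosylceramide synthase, and B4galt1 differed by -0.46 and -0.35, and B3galt4, of ganglioside synthesis, by 0.21, with all diabetic arrays above all wildtype arrays. B3galt1 differed by -0.18 and by -0.12 at its other probe set. The median of the linkage enzymes was -0.13, and differences between lists were not tested.

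**Figure D4:**
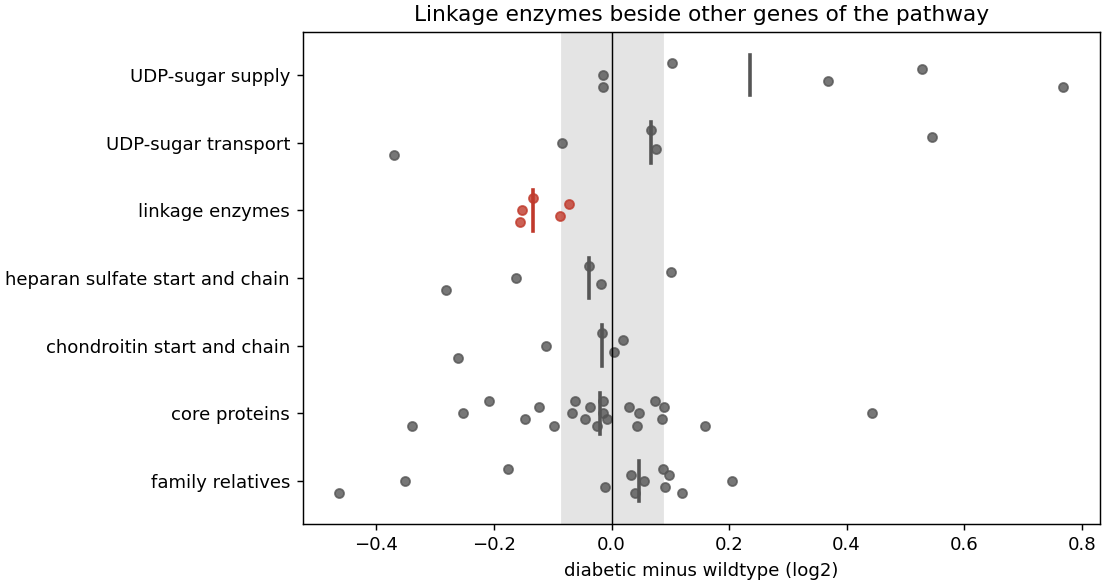
Differences (diabetic minus wildtype, log2) of the linkage enzymes, in red, and of the other genes of the pathway, in grey, by list, 1 point per gene with the list median as a bar. The grey band spans the 25th to 75th percentile of all probe sets. No point passed the limma threshold, and the medians run from -0.13 for the linkage enzymes to 0.24 for UDP-sugar supply.

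Markers of other liver cells were measured in part, with 0 called. The mean log2 level of 6 macrophage markers of 11 ranged from 5.59 to 6.36 over the diabetic arrays and from 5.74 to 6.17 over the wildtype arrays. For 3 endothelial markers of 11 the ranges were 6.42 to 6.93 in diabetic and 6.56 to 6.93 in wildtype liver. For 3 stellate cell markers of 8 they were 3.95 to 4.10 in diabetic and 4.07 to 4.39 in wildtype liver, and for 3 lymphocyte markers of 11 the mean level was 5.11 ± 0.10 on diabetic and 5.12 ± 0.09 on wildtype arrays (SD, n = 3). Cholangiocyte markers were not analysed here. The groups overlapped for each of these lists. The median differences were -0.22 for endothelial markers (2 of 3 lower; Clec4g -0.25, Icam2 -0.22, Pecam1 0.02), -0.10 for stellate cell markers (2 of 3 lower; Pdgfrb -0.38), 0.0039 for macrophage markers (3 of 6 lower) and 0.03 for lymphocyte markers (1 of 3 lower). The endothelial and stellate cell medians thus lay on the same side of 0 as that of the linkage enzymes, -0.13. The part of these cells in the linkage enzymes' values was not tested.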

How the data were processed

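Liver RNA of 3 diabetic and 3 wildtype male mice was measured on 6 arrays. The authors deposited 1 value per probe set and array, made with RMA per the submitters' processing notes; its version is not given in the sources used here. A log2 scale was inferred for these deposited values, which ran from 2.03 to 13.45. Since the authors had normalized between arrays, a shift common to most probe sets cannot be seen.

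Of 984 probe sets with a RefSeq accession in their name, 963 were named through the RefSeq gene table of GRCm38.p6, giving 909 genes; a gene with several probe sets was represented by the one with the highest mean over the arrays, and each linkage enzyme had 1. Diabetic minus wildtype was fitted on all 1246 probe sets with limma 3.58.1 (lmFit, eBayes; 4 residual and 2.44 prior degrees of freedom) under R 4.3.3, Benjamini-Hochberg adjusted over all of them, at a threshold of 0.05. The fit was also run on simulated data, and the outcome is not given here. The simulated noise was independent between arrays, so that run does not cover the correlated deviations described below. Single differences were also compared by exact two-sided permutation tests.

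Over all probe sets, array deviations from their group's mean correlated at 0.397, 0.138 and 0.162 for arrays numbered 1, 2 and 3 in both groups. These exceeded the limit of 0.1 set for treating the numbers as pairs, although the labels do not say what a number stands for. The main fit and the exact permutation tests did not use the numbers, and the fit with the replicate block is given beside them. The pairing comes from the numbers in the sample titles.

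The enzymes and gene lists were chosen with earlier results of these data known. Named genes were the enzymes, up to 4 members of each pathway list with the largest absolute differences, and for each enzyme the 2 genes with the highest Pearson's r. Uxs1, Slc35a2's dimmer probe set, Sdc4 and the cell markers were named after their values were seen. Promoter windows were searched by exact match.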

Additional observations from a re-analysis of the deposited data

How the results depend on the processing

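The comparison was repeated after a median shift, after quantile normalization, without the dimmer probe sets (which removed B3galt6), with trended and robust eBayes, with array weights, with the replicate block and with each array left out. For the counts of calls there were also an ordinary linear model and an adjusted p threshold of 0.10. A mean over a gene's probe sets was not run, because each enzyme had 1. The count of called linkage enzymes was 0 under each of these, with adjusted p between 0.761 and 0.995. The count of 4 called probe sets was 0 with trended and robust eBayes, with the replicate block and without moderation (ordinary linear model), and between 0 and 1 with 1 array left out, where fewer samples are tested; otherwise the cause was not tested. The replicate block changed no call of a linkage enzyme.

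With 1 array left out, the difference ran from -0.32 to 0.17 for Xylt2, from -0.13 to 0.0085 for B3galt6, from -0.30 to 0.0046 for B3gat3, from -0.25 to -0.07 for B4galt7 and from -0.21 to -0.08 for Xylt1, and the mean over the 5 from -0.19 to -0.04. All differences stayed negative under the settings that kept all arrays. Without the 2 arrays farthest from the median of the first gene, the correlation changed sign for Xylt1 with Xylt2 (-0.063; -0.11 on deviations from the group means), Xylt1 with B3galt6 (-0.39), Xylt2 with B4galt7 (-0.22), B4galt7 with B3galt6 (-0.90) and B4galt7 with B3gat3 (-0.74). The cause of these reversals was not tested. With no detection call, signal over background was not measured for any enzyme. The replicate block moved the lower bound of B3gat3's interval to -0.41, against -0.54 without it.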
